A study of Mus musculus with 6 samples.

Results

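The genes described here are 9 nuclear receptors (Pparg, Ppard, Nr1h3, Rxra, Rara, Vdr, Nr3c1, Esrra and Thra) and the coactivator gene Ppargc1b, which encodes PGC-1beta. They were chosen by symbol, and all 10 were found among the 26529 genes of the deposited table. RNA had been sequenced from bone marrow-derived macrophages of wild-type C57BL/6 mice aged 8 weeks, 3 libraries per group. Both groups grew in 20 ng/ml M-CSF, a macrophage growth factor, and 10 ng/ml RANKL, the cytokine that drives osteoclast formation. The osteoclast precursor group (OCP) was taken on day 3 and the osteoclast group (OC) on day 6. No culture without RANKL was among the samples, and the labels do not state if replicates were separate mice or cultures. The p-values therefore measure the spread between these libraries, which may be technical.

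Nuclear receptors are transcription factors switched by small fat-soluble ligands such as retinoids, oxysterols, fatty acids, vitamin D, thyroid hormone and glucocorticoids. Many bind DNA as a pair with a retinoid X receptor and exchange corepressors for coactivators when ligand arrives. PGC-1beta is a coactivator that works with the orphan receptor ERR alpha to raise mitochondrial genes, and in the osteoclast lineage both are known for supplying the energy that bone resorption needs.

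Expression is given in RPKM, read counts scaled by gene length and by the reads assigned to genes in the library, which allows levels of different genes to be compared. Recovered library totals were 33219178 to 42121216 reads. Among genes with 1 to 20 reads, 76.3% to 79.7% of the counts in a library were even, a pattern that counting both mates of a read pair would give, although the sources used here do not say how pairs were counted. The test was limma on log2(RPKM + 1) for the 12301 genes that reached 1 RPKM in 3 or more libraries, and p-values were adjusted over all of them by the Benjamini-Hochberg method with 0.05 as the threshold. Most markers of the labelled cell types were abundant in both groups, except the macrophage gene Mrc1 (0.556 and 2.74 RPKM in OCP and OC) and the osteoclast gene Calcr (2.78 and 1.82 RPKM), both named after their values were seen. All 8 osteoclast markers were lower in OC (Ctsk 3249 ± 108 against 1711 ± 25.0 RPKM, SD, n = 3), and of 7 macrophage markers 5 were higher and 2 lower. Mrc1, among those higher, passed the filter through its OC libraries alone. By these markers the libraries labelled OC did not hold more osteoclast transcript than those labelled OCP, and the group names follow the labels. Of 9 neutrophil markers 3 were tested, and all of these were higher in OC, with a summed level of 34.5 to 38.1 RPKM in OCP and 48.9 to 53.3 RPKM in OC. Among other cells the summed levels in OCP and OC were 3.59 to 4.26 and 2.75 to 3.40 RPKM for B cells, 1.66 to 2.21 and 2.22 to 2.87 for T and NK cells, 2.62 to 2.90 and 2.24 to 2.61 for endothelium, and 2.04 to 2.16 and 2.11 to 2.31 for stromal cells, osteoblasts and adipocytes, with Adipoq at 0 in all OCP libraries. They were 0.427 to 0.519 and 0.307 to 0.561 RPKM for erythroid cells and megakaryocytes, and 0.593 to 0.644 and 0.624 to 0.652 RPKM for dendritic and mast cells. In the T and NK cell list Lck rose from a mean of 0.131 to 1.23 RPKM, while Trac, at 1.81 and 1.26 RPKM, was not called. Lck passed the filter through its OC libraries alone. Cd3e, Cd3d and Cd3g had group means of 0.0111 RPKM or less. Lck and these Cd3 genes were named after their values were seen. The part of these markers in the results below was not tested, and in bulk RNA fewer cells of a type and less RNA per cell cannot be told apart.

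Of the 10 genes 8 passed the filter on low values, and Pparg and Vdr did not. Thra, Nr3c1, Rara and Rxra rose, Ppargc1b, Nr1h3 and Esrra fell, and Ppard did not pass the test. These are 4 of 8 higher and 3 of 8 lower, where 23.5% of all tested genes were called higher and 32.1% lower, so the share that fell was near the background. In either direction 55.6% of all tested genes were called. The same 7 genes had no overlap between the OC and OCP libraries, 4 with all OC libraries above and 3 with all below. Among all tested genes 26.7% had all OC libraries above, 36% had all below and 62.7% had either. The changes were mostly small. The median absolute log2 fold change was 0.24 for the 8 genes and also 0.24 for all tested genes, and the median signed value was 0.08 against -0.05. Under TMM scaling these signed medians were 0.13 and 0.0019, and under voom 0.16 and -0.01. Only Ppargc1b and Thra kept their call in all 15 alternative settings of the analysis.

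**Figure D1:**
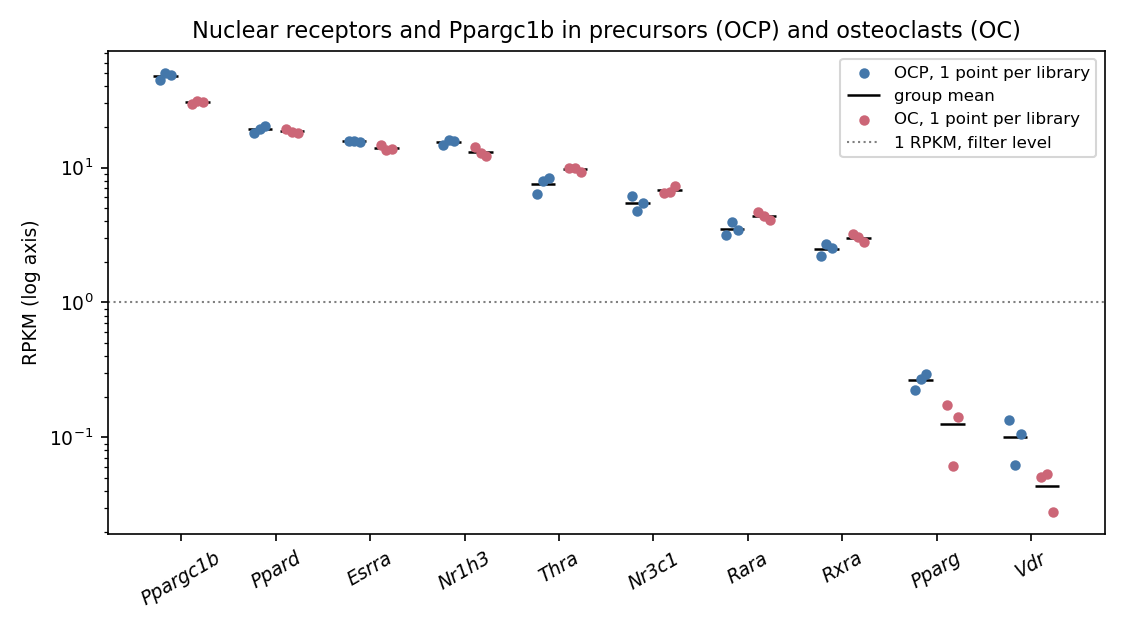
RPKM (log axis) of the 10 genes in each library, ordered by their mean in OCP, with 1 point per library, a bar for the mean of the 3 libraries and a dotted line at 1 RPKM. Ppargc1b is the most abundant and has the widest gap between the nearest libraries of the groups, and Pparg and Vdr lie below 1 RPKM in all 6 libraries.

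Ppargc1b was the most abundant of the 10 genes and had the largest change on the tested scale. The gene lies on the minus strand of chromosome 18 (61298136 to 61400431, GRCm38 coordinates as in the deposited table). Its level was 44.6, 50.4 and 48.4 RPKM in OCP replicates 1, 2 and 3, and 29.4, 31.1 and 30.5 RPKM in OC replicates 1, 2 and 3. The lowest OCP library was thus 13.6 RPKM above the highest OC library. The mean fell from 47.8 ± 2.93 to 30.3 ± 0.822 RPKM (SD, n = 3), a ratio of 0.634 and a log2 fold change of -0.64 (SE 0.06, adjusted p = 4.4e-05, limma). Of all tested genes, 4.02% had a larger fall. Over the alternatives the log2 fold change lay between -0.69 and -0.57.

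Esrra encodes ERR alpha, the orphan receptor that PGC-1beta coactivates, and lies on the minus strand of chromosome 19 (6910977 to 6921813). It was measured at 15.8, 15.9 and 15.4 RPKM in OCP and at 14.6, 13.4 and 13.8 RPKM in OC. All OC values were below all OCP values, by 0.866 RPKM at the closest point. The means were 15.7 ± 0.242 and 13.9 ± 0.586 RPKM (log2 fold change -0.16, SE 0.05, adjusted p = 0.021, limma). This call did not hold after TMM scaling (adjusted p = 0.092), after quantile normalization (0.057) or in the read-based voom fit (0.093). It was also lost without OCP replicate 2 (adjusted p = 0.054), OC replicate 2 (0.077) or OC replicate 3 (0.062). Exons of Esrra share 73 bases with Trmt112 on the opposite strand, a gene at 60.9 and 57.3 RPKM, and 91 bases with Mir6990 on its own strand. The sources used here do not give how strand entered the counting. Within a library, which removes the scaling, Ppargc1b stood at 2.82, 3.18 and 3.14 times the RPKM of Esrra in OCP and at 2.02, 2.32 and 2.21 times in OC. This ratio was lower in every OC library than in any OCP library (two-sided exact permutation p = 0.1, the smallest that 3 against 3 can give).

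Among receptors that sense fatty acids, Ppard, which encodes PPAR delta, was the most abundant receptor of all, and no change was detected. Its locus is chromosome 17, 28232754 to 28301469, plus strand. Its values were 17.9, 19.2 and 20.3 RPKM in OCP and 19.3, 18.4 and 17.9 RPKM in OC, and the groups overlapped. The log2 fold change was -0.04 (SE 0.06, adjusted p = 0.55, limma), and under TMM scaling it was 0.01.

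Pparg encodes PPAR gamma, the receptor best known from fat cells and from lipid-laden macrophages. Its locus is chromosome 6, 115360951 to 115490399, plus strand. It was nearly silent, with 28, 32 and 32 reads in OCP and 18, 6 and 16 reads in OC, or 0.264 ± 0.0357 and 0.126 ± 0.0582 RPKM (SD, n = 3). Each OC library was below each OCP library. In the fit without a filter its log2 fold change was -0.17 (SE 0.06, adjusted p = 0.088, limma), a scale whose pseudocount of 1 understates changes at this level. With a pseudocount of 0.01 it was -1.12. The gene passed with a lower value in the read-based voom fit (log2 fold change -1.08, adjusted p = 0.022), after quantile normalization (adjusted p = 0.036) and when the trend and robust options were off (0.049). Summed over libraries, the ratio of OC to OCP reads per library total was 0.485, with an exact binomial 95% interval of 0.272 to 0.836 computed on 46 and 20 pairs, that is, taking each pair of reads as 1 fragment, which covers counting error only.

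Nr1h3 encodes LXR alpha, an oxysterol sensor that drives cholesterol efflux in macrophages, and lies on the minus strand of chromosome 2 (91184061 to 91202834). It fell from 14.8, 15.9 and 15.7 RPKM in OCP to 14.2, 12.9 and 12.1 RPKM in OC. OC replicate 1 came within 0.561 RPKM of the lowest OCP library, and the other two lay further below. The means were 15.4 ± 0.583 and 13.1 ± 1.08 RPKM (log2 fold change -0.23, SE 0.07, adjusted p = 0.018, limma). The call was lost in 4 alternatives, namely TMM scaling (adjusted p = 0.057) and the fits without OCP replicate 3 (0.058), OC replicate 2 (0.054) or OC replicate 3 (0.058). Gm13783 shares 34 bases of exon with Nr1h3 on the same strand. Nr1h2, which encodes the sister receptor LXR beta, also fell, from 15.2 ± 1.27 to 12.4 ± 0.915 RPKM (adjusted p = 0.014), a call lost without OC replicate 2 (0.051). The ratio of Nr1h3 to Nr1h2 within a library was 1.02 ± 0.0490 in OCP and 1.05 ± 0.0641 in OC, a difference within the spread of the libraries (two-sided exact permutation p = 0.4).

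Rxra encodes the retinoid X receptor alpha, the shared partner of PPAR, LXR, retinoic acid, vitamin D and thyroid hormone receptors. Its locus is chromosome 2, 27676440 to 27762957, plus strand. OCP libraries had 2.22, 2.69 and 2.53 RPKM and OC libraries 3.20, 3.05 and 2.79 RPKM, so the groups were apart by only 0.0933 RPKM. The rise from 2.48 ± 0.242 to 3.01 ± 0.207 RPKM just passed the test (log2 fold change 0.21, SE 0.08, adjusted p = 0.048, limma). It was lost in 7 of 14 alternatives. These were no filter (adjusted p = 0.098), quantile normalization (0.18), the replicate number as a block (0.076), and the fits without OCP replicate 1 (0.13), OCP replicate 3 (0.092), OC replicate 1 (0.15) or OC replicate 2 (0.11). The within-library ratio of Rxra to the related receptor gene Rxrb depends on both genes and does not describe Rxra alone. This ratio was 0.284, 0.284 and 0.276 in OCP and 0.391, 0.400 and 0.363 in OC, with no overlap (two-sided exact permutation p = 0.1, the smallest possible). Rxrb itself did not pass, at 8.82 ± 0.884 and 7.82 ± 0.298 RPKM (adjusted p = 0.12, limma).

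Rara encodes the retinoic acid receptor alpha (chromosome 11, 98927818 to 98974942, plus strand). It rose from 3.17, 3.92 and 3.44 RPKM in OCP to 4.67, 4.34 and 4.08 RPKM in OC. The groups did not overlap, although OCP replicate 2 came within 0.164 RPKM of OC replicate 3. The log2 fold change was 0.25 (SE 0.08, adjusted p = 0.026, limma), with means of 3.51 ± 0.378 and 4.37 ± 0.296 RPKM. The call was lost with no filter (adjusted p = 0.064), after quantile normalization (0.064), and without OCP replicate 1 (0.072), OCP replicate 3 (0.074), OC replicate 1 (0.088) or OC replicate 2 (0.061). Its relative Rarb, a retinoic acid receptor whose gene is itself a classical retinoic acid target, had the largest rise among all tested receptors. Rarb was at 0.469, 0.299 and 0.538 RPKM in OCP and at 1.85, 1.91 and 1.95 RPKM in OC, a 4.37-fold ratio of means (log2 fold change 1.02, SE 0.08, adjusted p = 2.8e-05, limma). It passed the filter through its OC libraries alone. The remaining family member Rarg was at 4.44 ± 0.509 and 4.22 ± 0.163 RPKM and did not pass (adjusted p = 0.58).

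Thra encodes the thyroid hormone receptor alpha and had the largest rise of the 10 genes. Its locus is chromosome 11, 98740638 to 98769006, plus strand, on the same chromosome as that of Rara. The OCP libraries had 6.34, 7.89 and 8.31 RPKM and the OC libraries 9.93, 9.96 and 9.29 RPKM. OCP replicate 1 was the lowest, and all OC libraries lay above all OCP libraries. The mean rose from 7.51 ± 1.04 to 9.72 ± 0.375 RPKM (ratio 1.29, log2 fold change 0.34, SE 0.09, adjusted p = 0.013, limma), and 15.9% of all tested genes rose more. Exons of Thra share 263 bases, 5.7% of their length, with the circadian repressor gene Nr1d1 on the opposite strand. Nr1d1 rose from 2.68 ± 0.311 to 3.98 ± 0.295 RPKM (adjusted p = 0.0023), and reads in the shared stretch cannot be assigned without knowing how strand was used.

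Vdr encodes the vitamin D receptor, which in bone is known mainly from cells of the osteoblast lineage, and lies on the minus strand of chromosome 15 (97854425 to 97910630). It had the lowest level of the 10 genes, with 32, 14 and 22 reads in OCP and 10, 10 and 6 reads in OC. In RPKM this was 0.101 ± 0.0363 and 0.0439 ± 0.0140, and each OC library was below each OCP library. The unfiltered limma fit did not call it (log2 fold change -0.08, SE 0.03, adjusted p = 0.17), whereas the voom fit on reads did (-1.12, adjusted p = 0.036). The ratio of OC to OCP reads per library total was 0.426, with an exact binomial 95% interval of 0.206 to 0.829 on 34 and 13 pairs.

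Nr3c1 encodes the glucocorticoid receptor and lies on the minus strand of chromosome 18 (39410545 to 39491301). Its values were 6.15, 4.79 and 5.50 RPKM in OCP and 6.52, 6.54 and 7.31 RPKM in OC. OCP replicate 1 and OC replicate 1 were only 0.372 RPKM apart, and no libraries overlapped. The mean rose from 5.48 ± 0.676 to 6.79 ± 0.453 RPKM (log2 fold change 0.27, SE 0.09, adjusted p = 0.028, limma). The call was lost with no filter (adjusted p = 0.076) and without OCP replicate 2 (0.074), OCP replicate 3 (0.065) or OC replicate 3 (0.085).

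**Figure D2:**
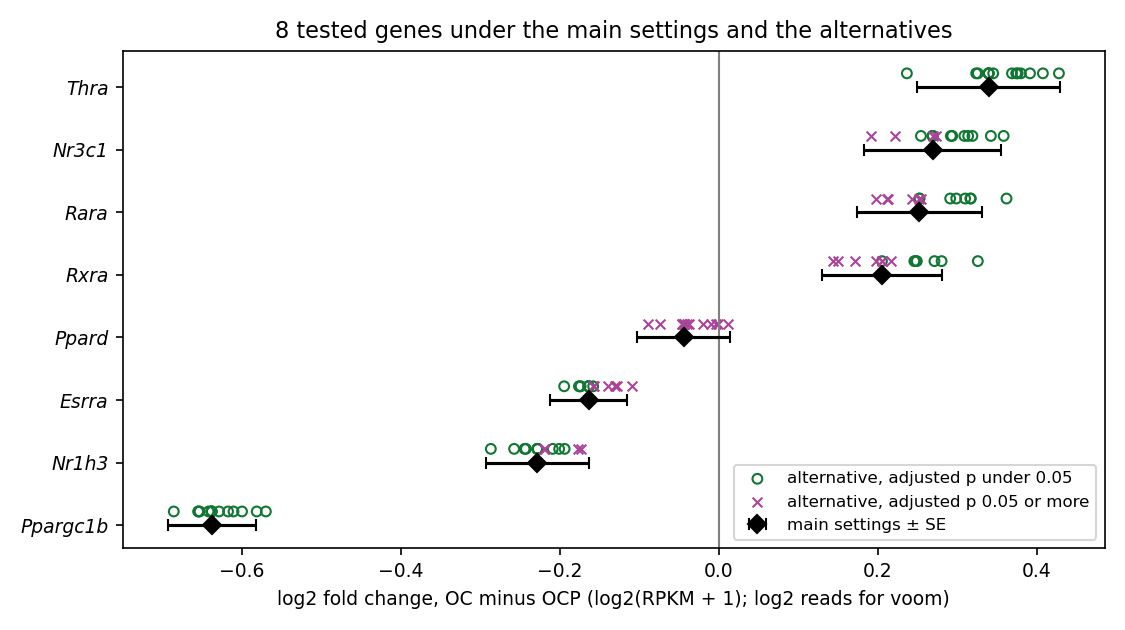
Log2 fold change (OC minus OCP) of the 8 tested genes, with the main settings as diamonds ± SE and each alternative as a circle (adjusted p under 0.05) or a cross (0.05 or more). All alternatives of Ppargc1b, between -0.69 and -0.57, and of Thra, between 0.24 and 0.43, are circles, and Ppard lies on both sides of 0.

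Ordered by level, the 10 genes ran in both groups as Ppargc1b, Ppard, Esrra, Nr1h3, Thra, Nr3c1, Rara, Rxra, Pparg and Vdr. Libraries of neighbouring genes in this order were apart in every case except Esrra and Nr1h3, whose ranges overlapped in OCP and in OC. Ppargc1b stood at percentile 88.9 of the tested genes in OCP and 83.6 in OC, and Rxra at 24.0 and 27.2. The spread between replicates was lowest for Esrra in OCP (coefficient of variation 1.54%) and, among tested genes, highest for Thra in OCP (13.8%). OCP replicate 1 held the lowest value of its group for 7 of the 10 genes.

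Sequences around transcription starts are shown for the genes in which the receptor core motif was found, since this is the element that most of these receptors recognise. RefSeq windows on GRCm38.p6 from 250 bases before to 50 bases after a start were used for 7 of the 10 genes. These were 14 windows in all. No window of Ppargc1b, Nr3c1 or Thra was searched, so the motif results do not cover these genes. Both strands were searched for AGGTCA, for AAGGTCA, the longer form preferred by ERR alpha, which contains AGGTCA, and for the palindromic glucocorticoid response element. AGGTCA was found in windows of Pparg, Rara and Rxra, 4 of the 14 windows, and in 16.3% of the 32851 windows of all genes. AAGGTCA was found once, in Rxra, and in 4.72% of all windows. The glucocorticoid element was found in none of the 14 windows and in 3 of all windows. The matches are printed on the gene's strand, 5′ to 3′, with the motif in capitals.
Rxra, chr2:27709042-27709341, plus strand, reverse complement of the motif at -87: gaaatgggtgTGACCTgagtaatggt
Rxra, same window, longer form at -49: ggtggcaggaAAGGTCAgtcactctct
Rara, chr11:98964622-98964921, plus strand, at 34: agattgcagcAGGTCAgtcctttgga
Pparg, chr6:115360894-115361193, plus strand, at -28: ccgccgcctcAGGTCAgagtcgcccc
Pparg, chr6:115362099-115362398, plus strand, at -9: ggacgcgaggAGGTCAagaaggggcc
Positions count from the transcription start. The Rxra window holds both matches on opposite strands upstream of 1 of its 2 listed starts. Rara and Rxra rose, with calls lost in several alternatives, and Pparg had lower values under the filter. A link between the motif and the direction of change was not tested, and a match describes letters only.

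Among the other nuclear receptors, 40 were listed, 9 were tested, 2 rose and 3 fell. Of all tested genes 23.5% rose and 32.1% fell. Their median log2 fold change was -0.13, against -0.05 for all tested genes. Rarb and Nr1d1 were those that rose. Nr1h2, Nr2c1 and Nr2f6 were those that fell, with Nr2c1 going from 3.27 ± 0.202 to 2.46 ± 0.0990 RPKM (adjusted p = 0.0042) and Nr2f6 from 2.97 ± 0.436 to 2.03 ± 0.223 RPKM (adjusted p = 0.0097). Both encode orphan receptors known mostly as repressors. Summed over the 40 receptors with a row in the table, expression was 110.4, 119.0 and 118.1 RPKM in OCP and 118.1, 110.9 and 111.2 RPKM in OC, so the groups overlapped. Ppard, Esrra, Nr1h3 and Nr1h2 made up 16.5%, 13.6%, 13.3% and 13.1% of this sum in OCP and 16.3%, 12.3%, 11.5% and 10.9% in OC.

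**Figure D3:**
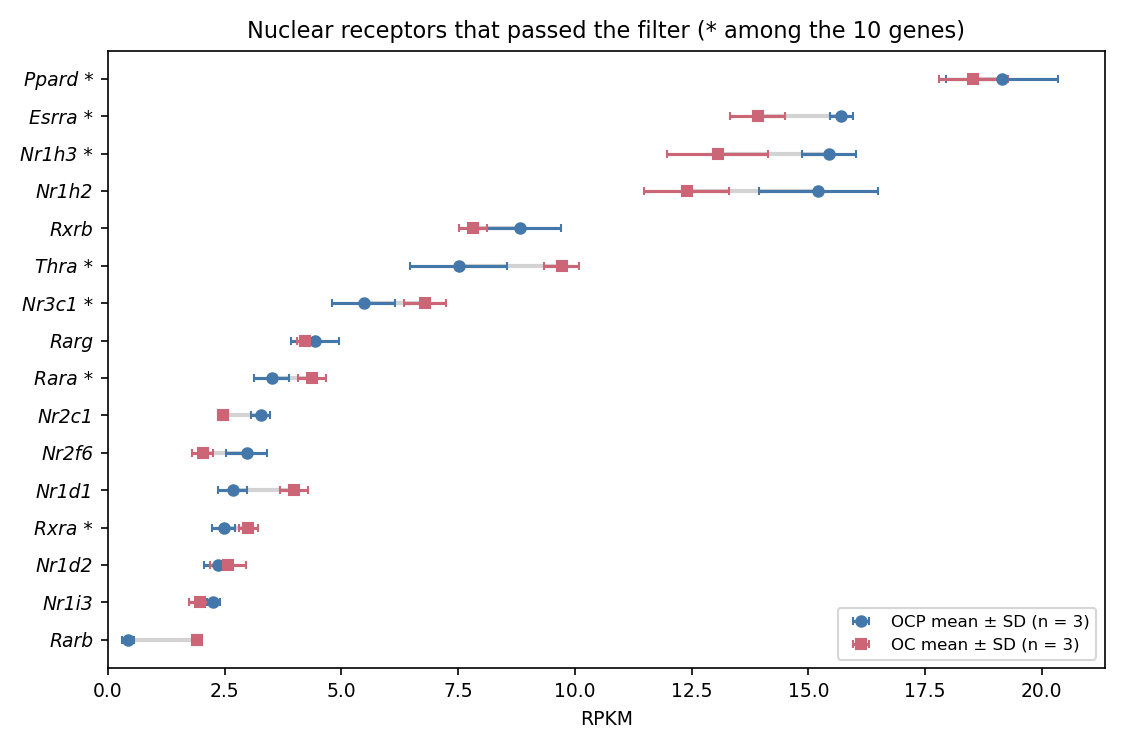
Mean RPKM ± SD (n = 3) of the 16 receptors that passed the filter, OCP as circles and OC as squares, ordered by the OCP mean, with a star for those among the 10 genes. The first 4 rows, Ppard, Esrra, Nr1h3 and Nr1h2, are the most abundant in both groups, and Rarb moves from 0.436 to 1.90 RPKM.

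Genes of the cofactors that receptors recruit were called about as often as all tested genes, 6 of 12 coactivators and 5 of 9 corepressors where the share over all tested genes was 55.6%. Of 13 coactivator genes 12 were tested, 4 rose and 2 fell (median log2 fold change -0.05, with 1 fall under TMM scaling, median 0.0033, and under voom, median -0.01). Named after their values were seen, Ncoa1, Med1, Ep300 and Carm1 rose and Ncoa2 and Prmt1 fell. Ncoa1, a steroid receptor coactivator, went from 3.08 ± 0.203 to 3.94 ± 0.456 RPKM (adjusted p = 0.022, limma), which was lost with no filter (0.059) and without OCP replicate 2 (0.061), OCP replicate 3 (0.068), OC replicate 1 (0.080) or OC replicate 3 (0.064). The arginine methyltransferase gene Prmt1 fell by 0.38 on the log2 scale (22.6 ± 1.18 and 17.1 ± 0.870 RPKM, SE 0.06, adjusted p = 8.8e-04). The most abundant, Ncoa3, was at 24.9 ± 0.425 and 24.0 ± 0.481 RPKM and did not pass. Ppargc1a, which encodes the closest relative of PGC-1beta and was also named after its values were seen, had only 26, 12 and 32 reads in OCP and 4, 8 and 10 reads in OC. In RPKM the means of Ppargc1a were 0.0905 and 0.0312, both under the filter. Of 9 corepressor genes, all tested, 4 rose and 1 fell (median 0.09, with 0.14 under TMM scaling and under voom, and 3 rising after quantile normalization). Tbl1x, part of the NCoR complex, rose from 6.39 ± 0.336 to 9.12 ± 0.392 RPKM, and Gps2, another subunit and the most abundant, fell from 81.3 ± 10.6 to 56.4 ± 8.33 RPKM (adjusted p = 0.0099). The others that rose, Ncor1, Tbl1xr1 and Sin3a, were named after their values were seen.

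Most textbook targets of ERR alpha and PGC-1 fell, as Ppargc1b did, and a link between these changes was not tested. The list was chosen with earlier results of these data known. Of 14 such genes, all tested, 13 fell and 1 rose, where 32.1% of all tested genes fell and 23.5% rose. Under the filter on a mean RPKM of 5 or more, 2904 of 7228 genes fell and 1645 rose. The median log2 fold change of the 14 targets was -0.46, against -0.05 for all tested genes. Uqcrc1, a subunit of respiratory complex III, fell from 168.4 ± 7.73 to 103.3 ± 6.73 RPKM (log2 fold change -0.70, adjusted p = 4.1e-05, limma). Atp5b, the most abundant, fell from 699 ± 19.6 to 529 ± 33.2 RPKM. Sod2, a mitochondrial superoxide dismutase, was the one that rose, from 201.5 ± 6.53 to 238.9 ± 5.61 RPKM. Under TMM scaling, quantile normalization and voom 12 of the 14 still fell. Among 11 tested partners of mitochondrial biogenesis 3 fell, 1 rose and 7 did not pass (median -0.00, with 0.04 under TMM scaling and under voom, and -0.07 with 4 falling after quantile normalization). Tfrc, the transferrin receptor that brings in iron, fell from a mean of 52.2 to 34.8 RPKM (log2 fold change -0.57, SE 0.10, adjusted p = 0.0016, limma), and Polrmt, the mitochondrial RNA polymerase, from 8.61 ± 0.685 to 5.90 ± 0.444 RPKM. Polg, named after its values were seen, also fell. Yy1, a transcription factor, rose by 0.23 on the log2 scale (20.1 ± 0.847 and 23.8 ± 2.96 RPKM, adjusted p = 0.049), a call lost in 7 of 15 alternatives (adjusted p up to 0.12), among them without OCP replicate 1 (0.11), 2 (0.12) or 3 (0.062) and without OC replicate 1 (0.087) or 3 (0.12).

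Targets of the lipid sensors did not move one way. For the counts below, 23.5% of all tested genes rose and 32.1% fell. Of 14 PPAR targets 12 were tested, 5 rose and 5 fell. Fabp4, the fatty acid binding protein that marks PPAR gamma activity in macrophages and fat cells, had the largest rise of the pathway genes listed. Fabp4 was at 1.13, 0.920 and 0.885 RPKM in OCP and at 13.2, 12.2 and 13.2 RPKM in OC. This was a 13.2-fold ratio of means (log2 fold change 2.81, SE 0.07, adjusted p = 4.4e-08, limma). Fabp4 passed the filter through its OC libraries, since in OCP only replicate 1 reached 1 RPKM. Pparg itself stayed below 0.3 RPKM in all libraries, and a link between these genes was not tested. Hilpda, a lipid droplet protein that hypoxia also induces, rose from 2.37 ± 0.486 to 9.82 ± 0.849 RPKM, and the droplet coat protein gene Plin2 from 80.8 ± 1.17 to 95.5 ± 3.81 RPKM. Cd36 and Acadl also rose, and those that fell were Lpl, Acadvl, Hadha, Acaa2 and Slc25a20 (all of these named with their values known). Acaa2 fell from 69.4 ± 1.34 to 34.6 ± 0.987 RPKM. Of 12 tested LXR targets 6 rose and 5 fell (median 0.06, with -0.01 after quantile normalization, 0.10 under TMM scaling and 0.16 under voom). Both LXR genes were called lower, though not in all alternatives, and a link to these targets was not tested. Apoe, the apolipoprotein E gene, rose from 109.5 ± 6.31 to 286 ± 8.41 RPKM and Pltp, the phospholipid transfer protein, from 13.1 ± 0.688 to 32.7 ± 2.04 RPKM. Abcg1, a cholesterol exporter, fell from 20.1 ± 0.578 to 14.3 ± 0.554 RPKM (log2 fold change -0.46, adjusted p = 1.3e-04).

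Among 11 tested glucocorticoid receptor targets 8 rose and 2 fell, where 23.5% of all tested genes rose and 32.1% fell. The median log2 fold change was 0.39, against -0.05 for all tested genes. Fkbp5, a co-chaperone and standard readout of the receptor, went from 2.01, 2.23 and 2.34 RPKM in OCP to 6.85, 6.19 and 6.27 RPKM in OC (log2 fold change 1.22, SE 0.07, adjusted p = 4.0e-06, limma). The metallothionein Mt2, which metals also induce, rose from 25.4 ± 2.69 to 104.2 ± 8.56 RPKM, and the NF-kB inhibitor gene Nfkbia, the most abundant, from 274 ± 8.54 to 330 ± 3.49 RPKM. Tsc22d3, which encodes the glucocorticoid-induced leucine zipper, went the other way, from 8.54, 8.60 and 7.77 to 5.17, 5.12 and 4.57 RPKM (log2 fold change -0.65, SE 0.07, adjusted p = 1.0e-04). The other that fell was Anxa1, named after its values were seen, from 172.5 ± 15.1 to 115 ± 9.10 RPKM. Several of these genes answer to other signals too. The labels name no glucocorticoid treatment, and the cause of these changes was not tested. Of 6 receptor chaperone genes 1 rose and 2 fell. Hspa8 rose from 752 ± 20.7 to 909 ± 19.1 RPKM, Fkbp4 fell from 126 ± 5.77 to 100.5 ± 5.52 RPKM, and so did Stip1 (180.5 ± 1.85 to 162 ± 1.10 RPKM), which was named after its values were seen. Under TMM scaling and under voom 1 of the 6 fell. Hsp90ab1, the most abundant at 2416 ± 122 and 2221 ± 195 RPKM, did not pass.

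Of 11 retinoic acid, vitamin D and thyroid hormone targets only 3 were tested. Dhrs3, which turns retinal back to retinol and is a retinoic acid target, rose from 10.1 ± 0.663 to 21.1 ± 0.763 RPKM (log2 fold change 1.00, SE 0.06, adjusted p = 5.9e-06, limma). Tgm2, a transglutaminase, fell from 50.9 ± 2.78 to 33.3 ± 1.04 RPKM, and Klf9 did not pass. Among 21 genes of ligand metabolism and transport 3 were tested and 2 rose, where 23.5% of all tested genes rose. Fabp5, which carries fatty acids and retinoic acid to PPAR delta, rose from 156 ± 0.717 to 394 ± 28.0 RPKM (log2 fold change 1.33, SE 0.05, adjusted p = 8.7e-07). Crabp2, the carrier that brings retinoic acid to its receptors, rose from 1.12 ± 0.188 to 1.58 ± 0.187 RPKM (adjusted p = 0.029). That call was lost with no filter (0.070), after quantile normalization (0.14), and without OCP replicate 1 (0.086), OCP replicate 3 (0.083), OC replicate 2 (0.10) or OC replicate 3 (0.061).

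**Figure D4:**
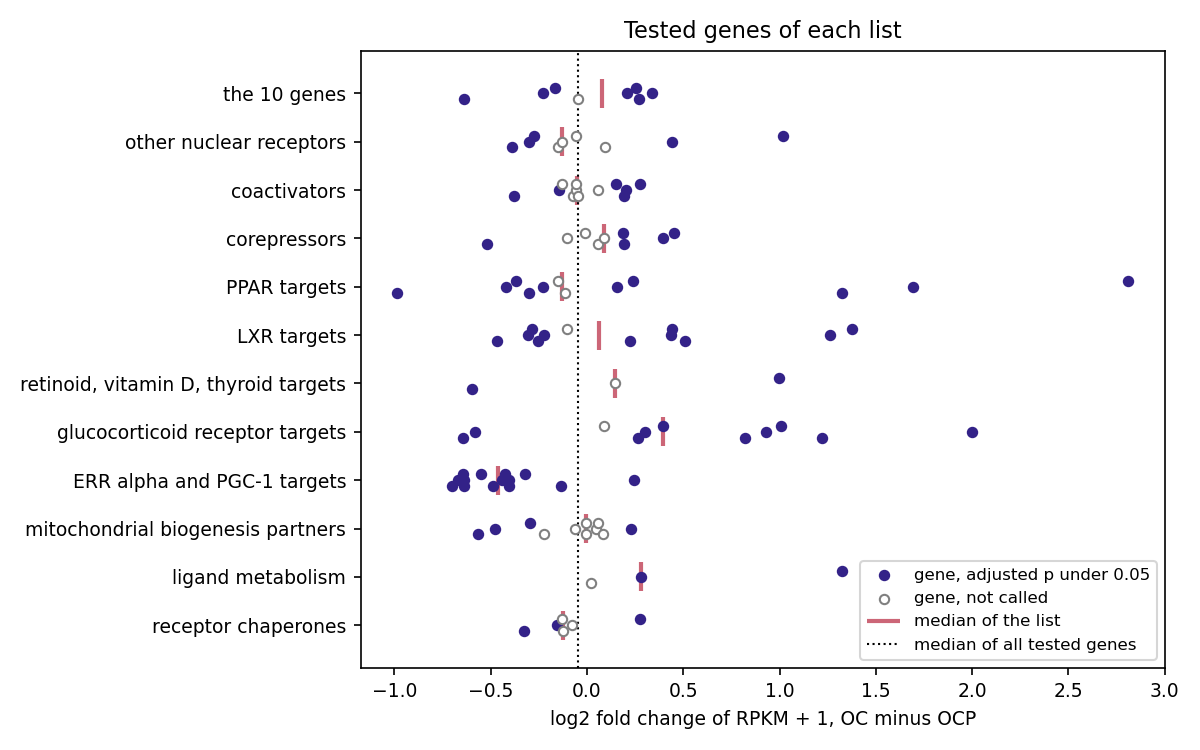
Log2 fold change of RPKM + 1 (OC minus OCP) of every tested gene in each list, filled where the adjusted p was under 0.05, with the median of the list as a bar and the median of all tested genes as a dotted line. Targets of ERR alpha and PGC-1 lie below 0 in 13 of 14 cases and glucocorticoid receptor targets above 0 in 9 of 11, while PPAR and LXR targets lie on both sides.

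The patterns closest to the outermost members were found by correlation over the 6 libraries across the 12301 tested genes. For Ppargc1b these were Gm21969 (r = 0.9994), Ttc9 (r = 0.9988) and Lamtor5 (r = 0.9981), which fell to 17.9, 2.83 and 56.6 RPKM from 22.8, 4.51 and 70.9 RPKM. For Thra they were Chd3 (r = 0.9949), Lman2l (r = 0.9868) and Gm12898 (r = 0.9865). Their means were 20.0, 3.61 and 5.52 RPKM in OCP and 23.0, 3.89 and 6.84 RPKM in OC. Lman2l was not called (log2 fold change 0.08, adjusted p = 0.22, limma). The calls of Chd3 and Gm12898 were lost in 2 and 5 of 15 alternatives. The 6 points share the split into groups, 729 genes had r above 0.98 with Ppargc1b, and the values are a description.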

How the data were processed

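RNA-seq libraries of 3 OCP and 3 OC samples were analysed. Per the submitters' processing notes the authors used Trimmomatic 0.36, STAR 2.5.3a and featureCounts (version not given) and named the build GRCh38. The coordinates are those of mouse genes, and 22305 of 26529 genes had the same start and end in GENCODE M21 on GRCm38. The authors deposited RPKM values per gene and library. RPKM times the length of the gene in the table gave whole reads for 100% of values within 0.01 reads. The sources used here do not give the strand setting or the handling of multi-mapping reads and duplicates, which leaves overlapping genes and genes with near-identical copies (the Hsp90, Hspa8, Fabp5 and metallothionein families) uncertain.

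The members and lists were chosen with earlier results of these data known. Values were tested as log2(RPKM + 1) with limma 3.58.1 under R 4.3.3 and statmod 1.5.0, using trend and robust options, two-sided, without a replicate block, after checks on simulated reads. Named from each list were the 2 called genes with the largest change, the called gene furthest against the list's main direction and the most abundant gene, and all tested receptors. Some genes that the rule picks are not reported here. Lists are described by counts and medians with no set test. Settings varied one at a time: pseudocount (0.1, 0.01), filter (none, or mean RPKM of 5 or more), scaling (quantile, TMM factors), no trend or robust options, a replicate block, voom on recovered reads (at least 10 reads on average for genes under the filter) and leaving out each library. Floors and intervals cover counting error only. Tables and plots used Python 3.11.15, pandas 2.3.3, scipy 1.17.1 and matplotlib 3.10.9.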

Additional observations from a re-analysis of the deposited data

How the results depend on the processing

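Of the 10 genes 8 were tested, and 4 were higher and 3 lower in OC. Of all tested genes 23.5% were called higher and 32.1% lower. The count of those higher was 2 under the filter on a mean RPKM of 5, where fewer of them were tested, 1 with no filter and 2 after quantile normalization, and the count of those lower was 1 with TMM factors. With no filter 12.2% of all genes were called higher and 14% lower. After quantile normalization 2827 of 12301 genes were higher and 4092 lower. Leaving out 1 library gave 1 to 3 higher and 1 to 3 lower, and over all genes 2211 to 2936 higher and 3259 to 3671 lower. With the replicate number as a block 3 were higher and 3 lower, and over all genes 2827 were higher and 3851 lower, against 2889 and 3954. Deviations of libraries with the same number had correlations of -0.12, 0.14 and 0.01, and those with different numbers -0.28 to 0.26. With 3 libraries per group these values cannot decide if the numbers pair the samples. The filter on a mean RPKM of 5 gave 1645 genes higher and 2904 lower, where only 7228 were tested. TMM factors gave 3366 higher and 3346 lower. No called gene named by the rule turned its direction in these settings. Values that passed no test changed sign for Ppard (0.0114) and Ncoa3 (0.0013) with TMM factors, the Hbb-bs log2 fold change (from -0.0195 without OC replicate 1 to 0.1207 without OC replicate 3 when 1 library was left out, and 1.13 with a pseudocount of 0.01) and Rarg (0.0131) without OCP replicate 2. Except where fewer genes were tested, the cause of these changes was not tested. Of 144 recomputed values of the 10 genes 27 lost and 4 gained a call. Depth limits Pparg and Vdr, which had 6 to 32 reads per library.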

Other observations

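Several receptor and ligand genes below 1 RPKM, outside the tested genes, differed between the groups in the fit without a filter, in which 12.2% of 26529 genes were called higher and 14% lower. They were named after their values were seen. Thrb, the second thyroid hormone receptor gene, was lower in OC while Thra was higher. It had 170, 141 and 144 reads in OCP and 64, 57 and 82 reads in OC, or 0.585 ± 0.0386 and 0.290 ± 0.0345 RPKM (adjusted p = 0.0097, limma). All OC libraries were below all OCP libraries. Nr6a1, an orphan receptor known from germ cells and early embryos, was higher in OC, with 52, 56 and 61 reads in OCP and 141, 104 and 168 reads in OC (adjusted p = 0.017). Cyp27b1, the enzyme that makes the active form of vitamin D, had 0, 2 and 0 reads in OCP and 12, 10 and 12 reads in OC (adjusted p = 0.0034), at 0.124 RPKM in OC. Vdr and the vitamin D target Cyp24a1 were both below 0.2 RPKM in every library.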
